A study of Arabidopsis thaliana with 3 samples.

Results

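The genes described here are 33 Arabidopsis thaliana loci known from the wall and the tip growth of root hairs. They were taken from a list of root hair loci drawn up with the fe-1 results of these arrays in view, so the fe-1 ratios of the list below are a description and carry no test of their own. Of the 33 loci, 32 had a matched probe, out of 25383 loci matched on the array, and all 32 passed the filter on dim probes in both comparisons. PIP5K3 (AT2G26420) had no matched probe and is not analysed here. Whole seedlings on day 7 were measured on 3 two-colour Agilent arrays, grown in long days at 22 °C on MS medium with 1% sucrose. On 2 arrays, labelled biological replicates, RNA of the fe-1 mutant in Cy5 was set against RNA of wild type (the Ler accession) in Cy3, both untreated and collected at zeitgeber time 15 h. On 1 array, 35S::FE-GR (#5) seedlings submerged in 1 µM dexamethasone (Dex) for 2 h, in Cy5, were set against a mock treatment of that line in Cy3, and both were taken at zeitgeber time 14 h. FE encodes a transcription factor with a Myb-like domain that acts in phloem cells. 35S::FE-GR is a fusion of FE and a glucocorticoid receptor domain under the broadly active 35S promoter, and the label names a single line.

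A root hair is the outgrowth of a single epidermal cell of the root and lengthens only at its tip. A patch of ROP GTPase marks the site, an NADPH oxidase makes reactive oxygen there, and lipid signalling, ion pumps and secretion keep the tip growing. Expansins, xyloglucan enzymes and pectin enzymes loosen and remodel the new wall, while proline-rich glycoproteins and peroxidases strengthen it. Many of these genes are transcribed almost only in hair cells and are driven by the RHD6 and RSL family of bHLH factors, whereas others act in many cells. No gene list can tell fewer hair cells from less RNA per hair cell in RNA of whole seedlings.

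Of 43803 gene spots per array, 72.1% to 74.8% were well above background in Cy5 and 75.1% to 78.1% in Cy3, and 0 were saturated. Precision is limited by the number of arrays. Both fe-1 arrays lay on the same slide and had the same dyes, so slide and dye effects on the fe-1 ratio cannot be told apart from the genotype with these arrays alone. FE itself (AT1G79430, RefSeq symbol APL) had levels of 9.99 and 9.91 in wild type and of 9.84 and 9.71 in fe-1, a ratio of -0.17 ± 0.031, with its other 2 probes at -0.0047 and 0.06. It read 13.53 with Dex and 13.79 with mock. The labels do not give the lesion of fe-1, so its transcript level is no check of the genotype. All ratios below are log2 values of fe-1 over wild type or of Dex over mock, with ± for the SD of 2 arrays. Channel levels are log2 signals of the probe that was read, and they are compared only between channels of the same probe. Sums of linear signals over a list are compared only between channels of that list.

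Root hair genes read lower in fe-1 than in wild type, with a median ratio of -0.84 over the 32 genes against -0.01 over all 20680 genes tested. Their ratios ran from -1.61 to 0.22. On both arrays 29 of 32 were below 0, as were 39.5% of all genes, and 2 were above 0 on both. In the limma fit over all genes, 27 of the 32 were called lower, at an adjusted p under 0.05, against 11.4% of all genes, 1 was higher, against 8.91%, and 4 did not pass. Since this contrast was in view when the list was made, nothing is read from these shares. A mean ratio at least 2-fold lower was found for 9 of them, and for 0.382% of all genes, and 21 were at least 1.5-fold lower, as were 1.15% of all genes. The median was -0.76 on array 1 and -0.91 on array 2, and the order of the genes was close to the same on both arrays (rho = 0.97 over 32 genes, which share the 2 arrays). Between the arrays the median difference of a gene was 0.134 and the largest 0.327. The count of 27 is tied to the processing. It was 9 of 32 when spots of non-uniform local background were kept and 20 from the processed signals of the scanner software. From the series value table it was 0. The median ratio stayed below 0 in each (-0.52, -1.29 and -1.295). Of all genes, 2350 of 20680 were called lower as reported. In those settings it was 398 of 20684, 411 of 20680 and 0 of 20680, in the same order. The value table held nearly the same ratios as the processed signals, so its count of 0 does not come from smaller ratios. Why these 2 counts differ was not tested.

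**Figure D1:**
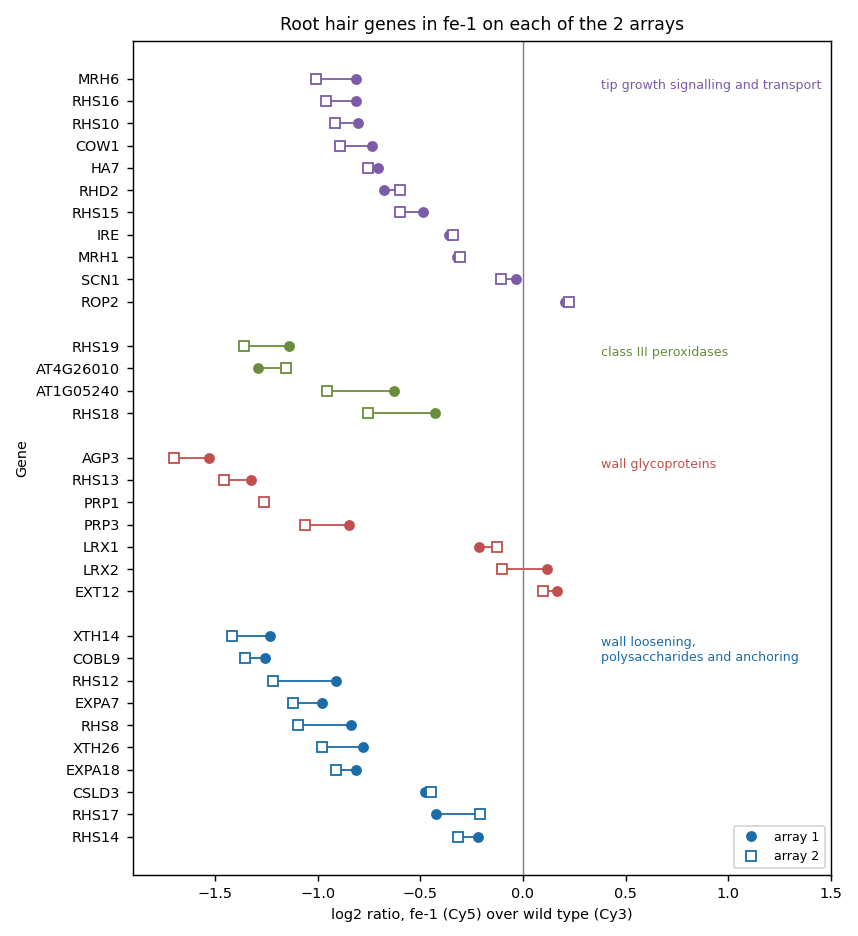
Log2 ratio of fe-1 over wild type (x axis) for each of the 32 root hair genes (y axis), grouped by role, with a filled circle for array 1 and an open square for array 2. On both arrays 29 genes lie left of 0, and ROP2, EXT12 and LRX2 are the exceptions.

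Genes of wall loosening, wall polysaccharides and membrane anchoring read lower in fe-1 without exception in these 10 genes, with a median of -0.92. XTH14 (AT4G25820), a xyloglucan endotransglucosylase/hydrolase gene, had levels of 11.19 and 11.25 in wild type and of 9.96 and 9.84 in fe-1. Its ratio was -1.32 ± 0.13, a 2.50-fold higher level in wild type. Both fe-1 values lay below both wild-type values, and the same held for the next gene. COBL9 (AT5G49270, RefSeq symbol SHV2), a GPI-anchored protein needed for oriented wall deposition, had levels of 9.66 and 9.51 in wild type and of 8.41 and 8.15 in fe-1, a ratio of -1.30 ± 0.069. The expansin gene EXPA7 (AT1G12560) had 8.78 and 8.68 in wild type and 7.80 and 7.56 in fe-1, with a ratio of -1.05 ± 0.10. Its partner in hair cells, EXPA18 (AT1G62980), had 9.48 and 9.41 in wild type and 8.66 and 8.50 in fe-1, with a ratio of -0.86 ± 0.068. The groups of neither expansin gene overlapped.

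Enzymes that act on wall polysaccharides differed in size within the same group. RHS12 (AT3G10710), a pectin methylesterase gene, read -1.06 ± 0.22, and RHS8 (AT1G63450), a xyloglucan glycosyltransferase gene, -0.97 ± 0.18. XTH26 (AT4G28850), a second xyloglucan endotransglucosylase/hydrolase gene, read -0.88 ± 0.14. CSLD3 (AT3G03050, KOJAK), a cellulose synthase-like gene needed for the hair wall, had a smaller ratio of -0.46 ± 0.023, from levels of 9.77 and 9.82 in wild type to 9.29 and 9.37 in fe-1. RHS17 and RHS14 had the smallest ratios of the group. RHS17 (AT4G38390), of a fucosyltransferase-like family, read -0.32 ± 0.15 at wild-type levels of 6.80 and 6.78. RHS14 (AT4G22080), a pectate lyase-like gene, was in fe-1 not well above background on either array. Wild type was at least 1.20-fold higher for RHS14, where the fe-1 level is taken as no lower than the dimmest signal well above background on that array.

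The wall glycoproteins split into genes that were much lower and genes that were not. AGP3 (AT4G40090), an arabinogalactan protein gene, had the lowest ratio of the 32. Its levels were 11.31 and 11.28 in wild type and 9.78 and 9.59 in fe-1, a ratio of -1.61 ± 0.12 or 3.06-fold, and it ranked 15 from the lowest of all genes tested. RHS13 (AT4G02270), a gene of the Ole e 1 and extensin-like family, had 12.04 and 12.01 in wild type and 10.71 and 10.56 in fe-1, with a ratio of -1.39 ± 0.093. The proline-rich protein genes PRP1 (AT1G54970) and PRP3 (AT3G62680) are both known from root hairs. PRP1 had levels of 8.59 and 8.43 in wild type and of 7.33 and 7.17 in fe-1, and its ratio of -1.26 was nearly equal on both arrays. PRP3 read -0.95 ± 0.15 from its brightest probe, while its other probe read -0.23. In these 4 genes each fe-1 value was below each wild-type value.

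The leucine-rich repeat extensin genes and EXT12 were the wall genes not called lower. LRX1 (AT1G12040), needed for hair wall assembly, had levels of 6.74 and 6.70 in wild type and of 6.53 and 6.58 in fe-1, a ratio of -0.17 ± 0.062. LRX2 (AT1G62440), which acts together with LRX1, had ratios of 0.12 and -0.10 on the arrays, so its sign was not settled. EXT12 (AT4G13390), an extensin gene, read 0.13 ± 0.046, and its second probe read -0.11. None of these 3 passed the fit over all genes. LRX1 was below 0 on both arrays, at -0.21 and -0.13. It was called lower when only probes well above background in every channel were kept. The extensin genes share repeats, so that signal from related transcripts cannot be told apart.

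All 4 class III peroxidase genes read lower in fe-1, with a median of -1.01. Secreted peroxidases of this class cross-link wall proteins or loosen the wall, depending on the oxygen species present. RHS19 (AT5G67400) had levels of 9.06 and 9.03 in wild type and of 7.92 and 7.67 in fe-1, a ratio of -1.25 ± 0.16. AT4G26010 had 10.44 on both arrays in wild type and 9.15 and 9.29 in fe-1, a ratio of -1.22 ± 0.097. Fe-1 and wild type were clearly apart for both genes. AT1G05240 (-0.79 ± 0.23) and RHS18 (AT5G22410, -0.59 ± 0.23) had the widest spreads between arrays of all 32 genes. In RHS18 the groups came close, since its fe-1 level of 6.85 on array 2 was only slightly below its wild-type level of 6.91 on array 1. AT1G05240 belongs to a cluster of related peroxidase genes whose transcripts could share its probe.

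**Figure D2:**
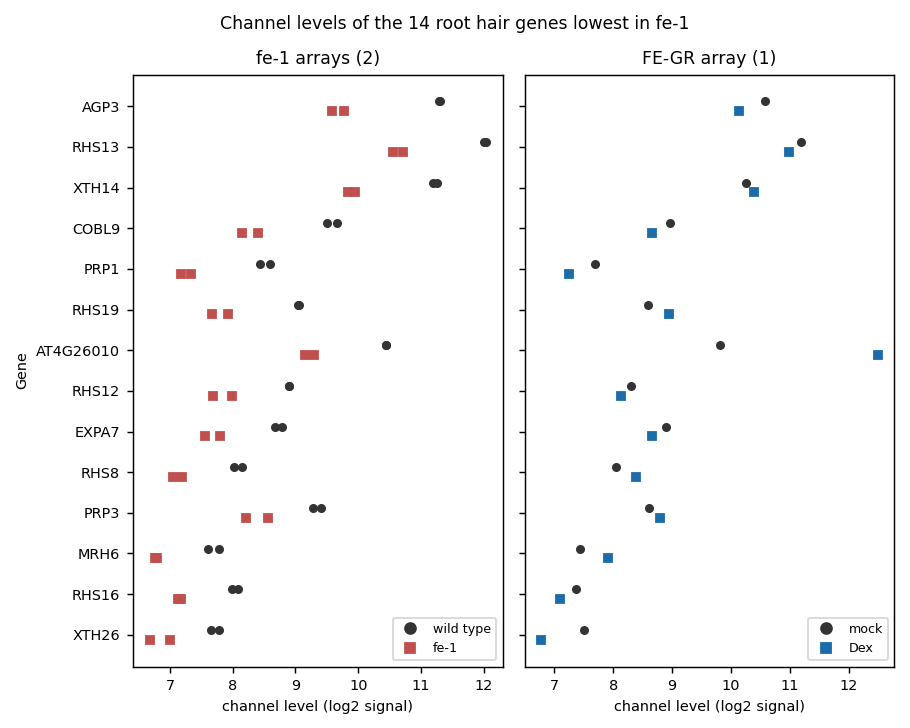
Channel levels (x axes, log2 signal) of the 14 root hair genes lowest in fe-1 (y axis). The left panel has wild type (circles) and fe-1 (squares) on 2 arrays and the right panel mock (circles) and Dex (squares) on 1 array, with levels to be compared within a row and panel only. In the left panel the fe-1 squares lie at lower levels than the wild-type circles in each row, and a lower mean level follows from the choice of rows. In the right panel AT4G26010 has the widest gap, with Dex at the higher level.

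Tip growth signalling and transport genes were lower, with a median of -0.64 over 11 genes, 0 of them at least 2-fold lower. With the scanner's processed signals their median was -0.99 and 5 were at least 2-fold lower. MRH6 (AT2G03720), of a universal stress protein-like family, read -0.91 ± 0.14. The receptor-like kinase gene RHS16 (AT4G29180) read -0.88 ± 0.10. The kinase gene RHS10 (AT1G70460, RefSeq symbol PERK13), known as a brake on hair elongation, read -0.86 ± 0.080, as low as genes that promote growth. COW1 (AT4G34580), a phosphatidylinositol transfer protein gene, had levels of 8.76 and 8.89 in wild type and of 8.02 and 8.003 in fe-1, a ratio of -0.81 ± 0.11. The proton pump gene HA7 (AT3G60330) read -0.73 ± 0.034. RHD2 (AT5G51060), the NADPH oxidase of the growing tip, had 9.26 and 9.19 in wild type and 8.59 on both arrays in fe-1, a ratio of -0.64 ± 0.052. For COW1 and RHD2 the groups did not overlap.

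The remaining genes of the tip machinery were closer to 0. RHS15 (AT4G25220, RefSeq symbol G3Pp2), of the glycerol-3-phosphate permease family, read -0.54 ± 0.080. The AGC kinase gene IRE (AT5G62310) read -0.35 ± 0.014 and was well above background in fe-1 on 1 of the 2 arrays only. The receptor-like kinase gene MRH1 (AT4G18640) read -0.31 ± 0.0082, and its other probes read -0.45 and -0.04. SCN1 (AT3G07880), a RhoGDI that confines the ROP patch, had levels of 10.10 and 10.15 in wild type and of 10.06 and 10.04 in fe-1, a ratio of -0.07 ± 0.053 that did not pass. The ROP GTPase gene ROP2 (AT1G20090) was the 1 gene called higher, at 0.22 ± 0.013. Its levels were 9.39 and 9.60 in wild type and 9.59 and 9.83 in fe-1, so the groups overlapped across arrays although fe-1 was higher on each. ROP2 lost this call with median centring, with an offset of 10, in the series value table, from the processed signals, and when the spots of non-uniform background were kept. ROP2 and SCN1 are both active well beyond root hairs.

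The processing changed the size of some ratios far more than of others. IRE read -0.35 as reported and -1.48 from the processed signals, RHS14 -0.27 and -1.30, RHS17 -0.32 and -1.00, and RHS18 -0.59 and -1.39. AGP3 moved little, at -1.61 and -1.63, as did RHS13 at -1.39 and -1.44, and RHD2 at -0.64 and -0.68. CSLD3 moved towards 0, from -0.46 to -0.30. With the processed signals 8 of the called genes lost their call. They were CSLD3, IRE, RHS14, RHS17, RHS15 (-0.99), AT1G05240 (-0.87), MRH1 (-0.33) and ROP2. The larger ratios of IRE, RHS14 and RHS17 from those signals are thus not called decreases. LRX1 (-0.17 and -0.28), LRX2 (0.01 and -0.05), EXT12 (0.13 and 0.15), SCN1 (-0.07 and -0.04) and ROP2 (0.22 and 0.21) stayed near 0 in both. The offset of 50 added before taking logs pulls ratios of dim probes towards 0 by construction.

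**Figure D3:**
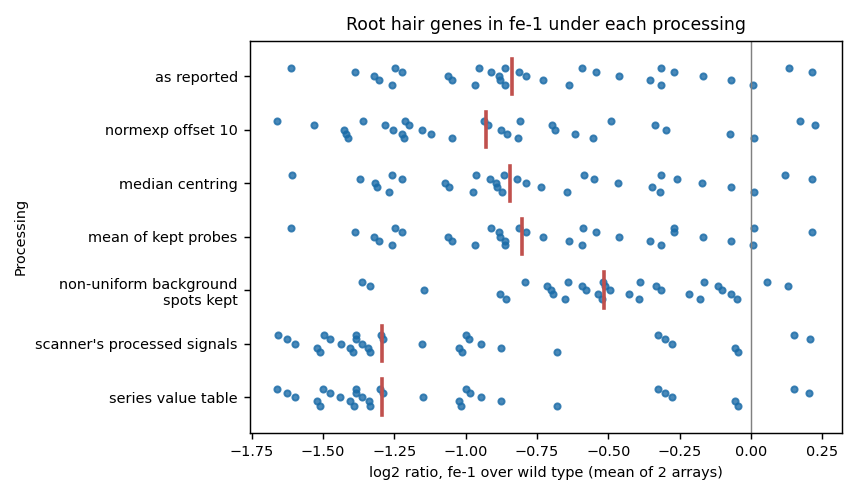
Log2 ratio of fe-1 over wild type (x axis, mean of 2 arrays) of the root hair genes under 7 of the processings tried (y axis), with 1 point per gene and a red line at the median. The median lies between -0.52, with the spots of non-uniform background kept, and -1.295, in the series value table.

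The 5 lists that follow were written from the known function of their genes but with earlier results of these arrays known, so their counts and p-values describe these arrays and are no independent support. The first holds other genes of hair cells, none of them among the 33. Of 25 such hair-restricted genes 24 were tested, and 23 fell, 0 rose and 1 did not pass in the limma fit over all genes, against 11.4% of all genes called lower. Their median was -0.48, and 6 were at least 2-fold lower, as were 0.382% of all genes. The 32 genes had a median of -0.84 but were listed with the fe-1 results in view, so nothing is read from this gap. The medians of the 2 lists were -1.02 and -1.29 with the scanner's processed signals, and -0.73 and -0.93 with an offset of 10. AT3G49960, a peroxidase gene, had levels of 11.66 and 11.60 in wild type and of 10.32 and 10.22 in fe-1 and fell by 1.36 ± 0.028 (limma adjusted p = 8.81e-06). MOP10 (AT5G05500), a proline-rich wall protein gene, fell by 1.31 ± 0.13 (limma adjusted p = 1.71e-05). The peroxidase gene AT1G30870 and the endoglucanase gene GH9C1 (AT1G48930) each fell by 1.18 (limma adjusted p = 1.25e-05 for each), with SDs of 0.0050 and 0.017. The 1 gene that did not pass was the extensin gene HRGP1 (AT3G54590), named here after its value of 0.00 ± 0.15 was seen. The count was 13 with the scanner's processed signals, 8 with the spots of non-uniform background kept and 0 in the series value table. Of all genes, 411 of 20680, 398 of 20684 and 0 of 20680 were called lower, in the same order. In each of these settings 24 of 24 ratios were below 0. Over all genes 10540 of 20680, 12400 of 20684 and 10557 of 20680 were below 0, in the same order.

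Of 17 regulators of hair fate and hair growth tested, 5 fell, against 11.4% of all genes, 0 rose, against 8.91%, and 12 did not pass, with a median of -0.12. RSL2 (AT4G33880) fell by 0.69 ± 0.066 (limma adjusted p = 0.000179), RSL4 (AT1G27740) by 0.61 ± 0.13 (adjusted p = 0.000676) and LRL3 (AT5G58010) by 0.59 ± 0.027 (adjusted p = 0.00032), all bHLH genes of hair outgrowth. RHD6 (AT1G66470), which starts hair formation, fell by 0.30 ± 0.034 (limma adjusted p = 0.00597). WER (AT5G14750, RefSeq symbol MYB66) and GL2 (AT1G79840), which set the hairless fate, read -0.01 ± 0.10 (limma adjusted p = 0.918) and -0.12 ± 0.079 (limma adjusted p = 0.156). LRL1 (AT2G24260) and LRL2 (AT4G30980), relatives of LRL3 named after their values were seen, did not pass, at -0.16 ± 0.036 (limma adjusted p = 0.0586) and 0.00092 ± 0.023 (limma adjusted p = 0.99). Differences between these regulators were not tested. With the spots of non-uniform background kept 0 were called, and the scanner's processed signals called 3, all lower. Those settings called 398 of 20684 and 411 of 20680 genes lower.

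Genes that hairs need but that many cells express were mostly near 0, with a median of -0.04. Of 17 tested 4 fell, against 11.4% of all genes, 1 rose, against 8.91%, and 12 did not pass. The myosin gene XIK (AT5G20490) had a ratio of -0.30 ± 0.11 and fell (limma adjusted p = 0.00946), with its other probes between -0.19 and 0.12. The proton pump gene HA2 (AT4G30190) fell by 0.23 ± 0.10 (limma adjusted p = 0.0248), with its other probe at -0.12. The channel gene CNGC5 (AT5G57940) fell by 0.18 ± 0.056 (limma adjusted p = 0.0384), with its other probes at -0.11 and 0.12. SHV3 (AT4G26690), a gene of a GPI-anchored, glycerophosphodiesterase-like protein, rose by 0.22 ± 0.14 (limma adjusted p = 0.0388). The GTPase genes ROP4 (AT1G75840, RefSeq symbol ARAC5) and ROP6 (AT4G35020, RefSeq symbol RAC3) read 0.10 ± 0.026 (limma adjusted p = 0.17) and -0.01 ± 0.063 (limma adjusted p = 0.872). None of the 17 was called with the scanner's processed signals or with an offset of 10. Those settings called 550 and 1839 of all 20680 genes.

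Markers of other root tissues moved both ways. Of 22 tested 8 fell (36.4%, against 11.4% of all genes), 4 rose (18.2%, against 8.91%) and 10 did not pass, with a median of -0.04 and ratios from -0.33 to 0.64. The endodermal gene CASP1 (AT2G36100) fell by 0.33 ± 0.045 (limma adjusted p = 0.00468). The aquaporin gene TIP2;3 (AT5G47450) rose by 0.64 ± 0.19 (limma adjusted p = 0.00106), with its other probe at 0.20, the nitrate transporter gene NRT2:1 (AT1G08090) by 0.37 ± 0.031 (limma adjusted p = 0.00259) and the sodium transporter gene HKT1 (AT4G10310) by 0.31 ± 0.063 (limma adjusted p = 0.00627). Summed over the 22 probes, the linear signal was 16760 and 16277 in wild type and 16112 and 15360 in fe-1, and all 22 markers were well above background in each channel. Summed over the 32 hair probes, it was 22826 and 23127 in wild type and 12452 and 11841 in fe-1. Such sums are weighted towards the brightest probes of a list, and no amount of root is read from them. With the scanner's processed signals 0 of the 22 fell and 2 rose, against 411 and 139 of all 20680 genes. Photosynthesis genes, which mark the shoot, had 6 of 17 higher, against 8.91% of all genes, and 1 lower, against 11.4%, with a median of 0.06. The processed signals called 0 of the 17, against 550 of all 20680 genes. Median centring called 13, all higher, against 1508 of all 20680 genes called higher. The Rubisco subunit gene RBCS1A (AT1G67090) rose by 0.56 ± 0.011, the photosystem gene PSBR (AT1G79040) by 0.54 ± 0.0037, the light-harvesting gene CAB1 (AT1G29930) by 0.45 ± 0.055 and the aldolase gene FBA2 (AT4G38970) by 0.44 ± 0.11, with limma adjusted p of 0.000382, 0.000467, 0.00135 and 0.00223. Other probes of these 4 genes read as low as 0.04, -0.13, -0.04 and 0.05, and the median of the 17 was -0.06 with the scanner's processed signals. The part that the amount of root in a seedling sample has in the hair gene ratios was not tested.

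**Figure D4:**
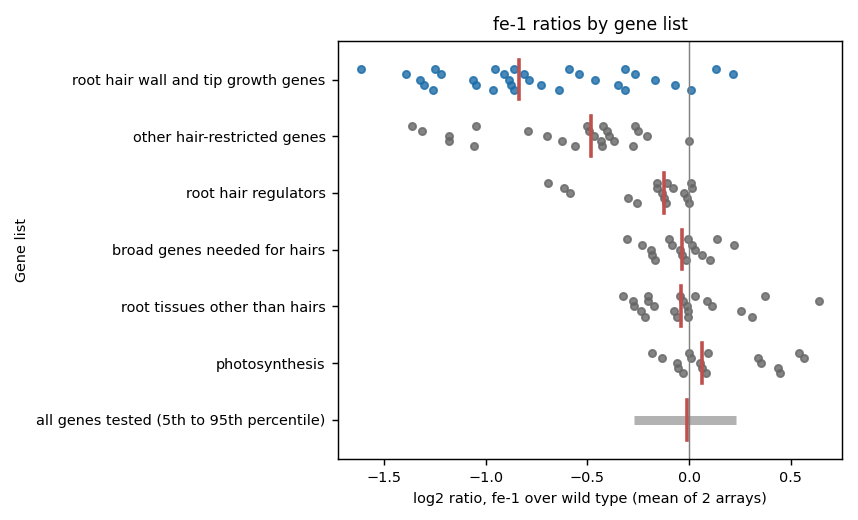
Log2 ratio of fe-1 over wild type (x axis, mean of 2 arrays) for the genes of each list (y axis), with 1 point per gene and a red line at the median. The grey bar spans the 5th to the 95th percentile of all 20680 genes tested. The medians are -0.84 for the root hair wall and tip growth genes, -0.48 for the other hair-restricted genes and between -0.12 and 0.06 for the remaining lists.

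FE lies on chromosome 1, as do 9 of the 32 genes. The 9 had a median of -0.86 and the 23 genes on other chromosomes one of -0.81. RHS10, the nearest of them, lies 924 protein-coding genes from FE in the RefSeq order of the TAIR10.1 assembly. Low ratios were found on both sides of that split.

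On the Dex array, which had no replicate and therefore no test, the root hair genes lay around 0 with a median of -0.09. All genes had a median of 0.00 there. With median centring in place of loess the medians were -0.03 and 0.22. With Dex 15 of the 32 were above mock and 17 below, and 30 changed by under 1.5-fold. Of all 20494 genes kept there, 10393 were above mock and 10101 below. At least 1.5-fold higher was 1 gene, against 6.95% of all genes, and at least 1.5-fold lower was 1, against 8.07%. The Dex array had the same dye orientation as the fe-1 arrays. The 27 genes called lower in fe-1 had a median of -0.16 on it, with 16 below 0 and 11 above. Their median of -0.88 in fe-1 follows from how they were picked, so nothing is read from the gap between these medians. Dye effects were not tested with this array.

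The exception was the peroxidase gene AT4G26010. Its level was 12.49 with Dex and 9.81 with mock, a ratio of 2.68 or 6.42-fold, and 2.80 by the scanner's processed signals. It ranked 88 from the highest of 20494 genes on that array, and it was among the lowest 45 genes in fe-1. The other 3 peroxidase genes read 0.36 (RHS19), 0.11 (RHS18) and -0.26 (AT1G05240). XTH26 was the gene at least 1.5-fold lower, at 6.78 with Dex and 7.50 with mock, a ratio of -0.72, and -1.23 by the processed signals. MRH6 (0.46) was the second highest, and PRP1 and AGP3 (each -0.44) followed XTH26 among the lowest. MRH6 and PRP1 passed 1.5-fold with the processed signals, at 0.63 and -0.62. ROP2, higher in fe-1, read -0.17 with Dex. COBL9 (-0.31), EXPA7 (-0.24), EXPA18 (0.14) and RHD2 (-0.34) stayed within 1.5-fold.

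**Figure D5:**
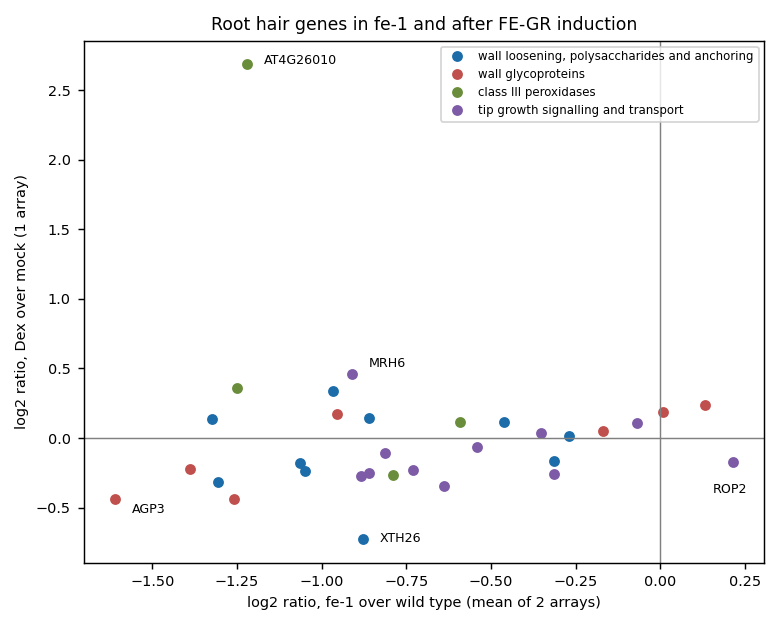
Log2 ratio of Dex over mock (y axis, 1 array) against that of fe-1 over wild type (x axis, mean of 2 arrays) for the 32 root hair genes, coloured by role. AT4G26010 lies at 2.68 on the y axis, and the other genes lie between -0.72 and 0.46 there.

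Among the other hair-restricted genes, BST1 (AT5G65090), an inositol phosphatase gene that governs hair initiation and tip growth, had the highest Dex ratio. It is named after its values were seen. Its level was 10.26 with Dex and 7.40 with mock, a ratio of 2.86, while in fe-1 it fell by 0.21 ± 0.032 (limma adjusted p = 0.0244). RSL2 read 0.66 with Dex, LRL3 0.41, RSL4 -0.11 and RHD6 -0.47. HA2 read -1.10 and the peroxidase genes AT5G39580 and AT3G01190, also named after their values were seen, -1.003 and -0.98. The list of hair-restricted genes as a whole had a Dex median of -0.04. Of the 22 markers of other root tissues 18 were below 0 with Dex, with a median of -0.22. Over all 20494 genes kept on that array 10101 were below 0, with a median of 0.00.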

How the data were processed

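RNA of whole seedlings was compared on 3 two-colour arrays. Sample titles and source names gave the groups. Per the file headers, the deposited spot intensity values were made with Agilent Feature Extraction 10.7.3.1, and the submitters' processing notes name version 10.7. The deposited files also hold processed signals, background-subtracted and dye-normalized by that software per the file headers, and for each spot the log10 of Cy5 over Cy3. The authors' series value table holds log2 ratios, which lay within 0.005 of those log10 values once put on the log2 scale, with a median of 0 in each column. No later step is given in the sources used here.

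Median spot signals were background-corrected with normexp (offset 50) and loess-normalized in limma 3.58.1 under R 4.3.3. Spots with an outlier or non-uniform flag were left out first, between 8 and 43 per array. Of these, 32 on fe-1 array 1 had a non-uniform local background. Accessions of 34285 of 43603 probes matched a RefSeq locus (TAIR10.1), used for names and gene order only. Probes stayed in where at least 2 of the 4 fe-1 channels, or at least 1 Dex channel, were well above background. The brightest of these probes stood for its gene. Channel levels of the fe-1 arrays were also scaled with Aquantile. The fe-1 ratios were tested against 0 with lmFit and eBayes, which left 1 residual and 6.56 prior degrees of freedom, and Benjamini-Hochberg adjustment ran over 20680 genes. The p-values measure the spread between these 2 arrays only.

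The 33 loci, the other 5 lists and the processing were chosen with earlier results of these data known. All 33 loci are named. From each other list the text names up to 4 called genes with the largest ratios, plus ROP4, ROP6, RHD6, RSL4, GL2 and WER. HRGP1, BST1, AT5G39580, AT3G01190, LRL1 and LRL2 were named after their values were seen.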

Additional observations from a re-analysis of the deposited data

How the results depend on the processing

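Of the 4192 genes called in fe-1, 43.9% were higher. With the spots of non-uniform background kept 510 genes were called (22.0% higher), with the scanner's processed signals 550 (25.3% higher), with an offset of 10 it was 1839, and the series value table gave 0, where limma had 6035 genes at an unadjusted p under 0.05. Root hair wall and tip growth genes called numbered 28 as reported, 9 with those spots kept and 0 from the value table, and their median was -0.52 with the spots kept, -1.29 with processed signals and -1.295 in the value table. The value table called 0 genes of each other list too. Called counts with the spots kept, with the processed signals and as reported were 8, 13 and 23 for other hair-restricted genes, 1, 0 and 5 for broad genes, 0, 3 and 5 for regulators, 3, 2 and 12 for other root tissues, and 6, 0 and 7 for photosynthesis. An offset of 10 called 0 broad genes. Median centring called 2 broad and 13 photosynthesis genes, and the mean of kept probes 2 and 2. On the Dex array 4 of the root hair genes passed 1.5-fold with the processed signals and in the value table, against 2 as reported, and median centring moved the median of all genes there to 0.22. Gene spots flagged for a non-uniform local background numbered 32 on fe-1 array 1, 0 on fe-1 array 2 and 0 on the Dex array. Keeping them therefore added gene spots to 1 of the 2 fe-1 arrays only. The cause of these shifts was not tested.

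With 1 fe-1 array at a time there is no test, and counts are of genes past 1.5-fold. They ran from 318 to 349 over all genes, 20 to 22 for the root hair genes, 9 to 12 for other hair-restricted genes, 1 to 3 for regulators, 0 to 1 for other root tissues and 0 to 0 for broad and for photosynthesis genes, and the median ratio of the root hair genes from -0.76 to -0.91. No root hair gene called as reported changed sign under any of the alternatives run. A slide block was not run because both fe-1 arrays lie on 1 slide. The fit is already paired, since each ratio sets fe-1 against wild type on the same array, and no further pairing was run.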
